A study of Mus musculus with 4 samples.

Results

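The genes that encode the subunits of the mitochondrial oxidative phosphorylation complexes were read across 4 RNA libraries of bone marrow-derived macrophages. They were taken by their symbols, namely Nduf followed by a, b, c, s or v and a number (complex I), Sdha to Sdhd (complex II), symbols that start with Uqcr (complex III), Cox4 to Cox8 (complex IV) and symbols that start with Atp5 (complex V). The rule used no measured value. It took 83 of the 16375 genes listed, of which 38 belong to complex I, 4 to complex II, 8 to complex III, 16 to complex IV and 17 to complex V. Changes were read on the 76 subunit genes with a mean of at least 1 FPKM (fragments per kilobase and per 1000000 fragments), beside all 6809 genes that met the same minimum. The 7 genes under it were Ndufa4l2, Ndufa12, Ndufb4, Ndufs4, Cox7a1, Cox4i2 and Cox8b. The deposited FPKM divides by the whole gene span, so a gene under the minimum need not have few fragments. Ndufs4 had 2417 to 2946 fragments and Ndufa12 869 to 1149.

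The macrophages were grown from bone marrow cells with M-CSF, from WT mice or from mice without the long noncoding RNA lncLy6c (LNCKO, made with CRISPR-Cas9 on the C57BL/6J background), and were kept for 24 h without butyrate (control) or with 500 µM butyrate, a short-chain fatty acid that gut bacteria make. This gave 4 groups, WT control and WT butyrate beside LNCKO control and LNCKO butyrate, with 1 library each, so no difference below has a replicate check and none could be tested. The study set these groups side by side to ask how butyrate and lncLy6c act on macrophage genes. The 4 libraries held 53363944 to 65521713 fragments. The sources used here do not tie an age to the mice of these 4 libraries, and no row carried the name lncLy6c, so the knockout was not checked on its own transcript.

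Of 10 macrophage markers fixed for the check of the label, all 10 were listed and none was at 0 in any library. Their summed level was 15546 fragments per 1000000 in the WT control, 20429 in WT butyrate, 13422 in the LNCKO control and 9675 in LNCKO butyrate. Other cells' markers were present too. The sum of 8 B cell markers was 1288, 988, 1320 and 1332 fragments per 1000000 in the same order, that of 8 neutrophil and precursor markers 6850, 7867, 6228 and 5795, and that of 6 cell cycle genes 1117, 1007, 1146 and 1074. Fragments of the Y-linked gene Ddx3y numbered 65 and 49 in WT and 6128 and 7764 in LNCKO, which means that sex and genotype cannot be told apart in any comparison of LNCKO with WT. Erythroid markers (5 of 6 listed) summed to 5.96, 6.88, 23.1 and 64.1 fragments per 1000000 and 4 stromal markers to 233, 194, 61.0 and 133, so both lists also differed between the genotypes. In bulk RNA, fewer cells of a kind and less RNA per cell cannot be told apart either.

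In the inner mitochondrial membrane, complex I takes electrons from NADH and complex II from succinate, complex III passes them to cytochrome c, and complex IV passes them on to oxygen. Complexes I, III and IV pump protons as they do so, and complex V, the ATP synthase, uses the returning protons to make ATP. Macrophages are known to change their use of this pathway with their state of activation, and butyrate is itself a fuel that mitochondria can oxidize as well as an inhibitor of histone deacetylases. Complexes I, III, IV and V also hold subunits encoded in the mitochondrial genome. The number of genes of the mitochondrial genome in the table was 0, so the values below describe nuclear-encoded subunits. Members lay on 19 chromosomes, 3 of them on X, and 82 of the 83 were annotated as protein-coding.

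Genes of this pathway are known to share promoter elements for the factors NRF1, GABP, YY1, ERRα and SP1. Of the 83 genes, 68 had a promoter entry in RefSeq (GRCm38.p6, 250 bases before to 50 bases after the start), in 73 windows. No entry was used for the other 15, among them Cox4i1, Cox6a2, Ndufs1, Sdhc, Uqcrb and Uqcrc2. Each motif was searched on both strands. The NRF1 letters GCGCATGCG were in 8 of the 73 windows (10.96%), against 4.05% of 6785 windows of all genes past the FPKM minimum and 1.75% of all 32851 windows. The looser GCGCANGCG, which contains the first motif, was in 28.8%, against 14.99% and 6.25%. The YY1 letters AAGATGGCG were in 9.59%, against 3.71% and 1.40%. The ERRα letters TCAAGGTCA were in 2 windows (2.74%), those of Sdhd and Atp5g3, against 0.236% and 0.423%. The GABP letters CCGGAAGT were in 6.85%, against 9.92% and 3.89%, and the SP1 letters GGGCGG in 38.4%, against 63.7% and 35.7%. NRF1 and YY1 letters were thus more frequent in subunit gene promoters than in those of all genes past the minimum, and SP1 letters less frequent. The median GC content was 57.7% in member windows, 60.7% in windows of genes past the minimum and 52.7% in all windows. No motif was found in 24 member windows. A match describes the letters only and shows neither binding nor a site.

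Promoters of 4 genes are shown for these letters, 5′ to 3′, with every match to any of the motifs in capitals: Uqcrc1 (chr9:108936398-108936697, + strand) and Cox6a1 (chr5:115348909-115349208, - strand) for NRF1, Ndufc1 (chr3:51408906-51409205, - strand) for YY1, and Cox6b2 (chr7:4753045-4753344, - strand), the testis-type partner of Cox6b1, in which SP1 was the only match.
Uqcrc1: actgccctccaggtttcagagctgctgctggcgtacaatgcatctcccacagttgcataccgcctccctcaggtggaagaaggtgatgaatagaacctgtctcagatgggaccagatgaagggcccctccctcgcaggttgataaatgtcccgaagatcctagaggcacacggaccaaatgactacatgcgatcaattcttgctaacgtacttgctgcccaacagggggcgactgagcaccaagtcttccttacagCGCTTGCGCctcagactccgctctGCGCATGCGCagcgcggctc
Cox6a1: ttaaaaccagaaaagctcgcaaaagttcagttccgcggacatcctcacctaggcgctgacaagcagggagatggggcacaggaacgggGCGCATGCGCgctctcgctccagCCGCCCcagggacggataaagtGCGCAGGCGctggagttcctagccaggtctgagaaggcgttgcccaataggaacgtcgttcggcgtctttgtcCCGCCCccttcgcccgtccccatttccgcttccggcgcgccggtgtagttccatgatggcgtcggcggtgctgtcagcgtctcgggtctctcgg
Ndufc1: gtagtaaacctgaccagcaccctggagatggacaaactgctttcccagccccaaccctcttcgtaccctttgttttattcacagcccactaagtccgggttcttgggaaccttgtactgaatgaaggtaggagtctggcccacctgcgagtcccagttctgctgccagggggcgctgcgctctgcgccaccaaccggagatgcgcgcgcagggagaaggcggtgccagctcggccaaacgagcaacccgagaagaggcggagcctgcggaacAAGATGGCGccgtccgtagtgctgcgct
Cox6b2: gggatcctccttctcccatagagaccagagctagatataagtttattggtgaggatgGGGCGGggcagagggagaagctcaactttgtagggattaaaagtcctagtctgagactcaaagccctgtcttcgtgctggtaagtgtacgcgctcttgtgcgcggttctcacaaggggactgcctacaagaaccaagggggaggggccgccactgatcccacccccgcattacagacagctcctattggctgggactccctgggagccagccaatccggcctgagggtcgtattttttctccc
The genes that carry the NRF1 letters are Ndufa11, Ndufa8, Uqcr11, Uqcrc1, Cox6a1, Atp5g2, Atp5k and Atp5l, and those with the YY1 letters are Ndufa9, Ndufc1, Ndufs4, Ndufs6, Ndufs7, Atp5j and Atp5j2.

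Levels of different genes were compared as fragments per kilobase of exon and per 1000000 fragments, since the deposited FPKM divides by the whole gene span. The mean over the 4 libraries ran from 0.0369 for Cox8b to 162 for Atp5a1, with a median of 35.2. There were 6 genes above 100: Atp5a1 and Atp5b, the α and β subunits of the catalytic head of ATP synthase (162 and 132), Cox8a (159), Cox4i1 (157), Cox6b1 (137) and Cox6a1 (126). Another 6 were below 2: Cox8b (0.0369), Ndufa4l2 (0.352), Cox4i2 (0.518), Cox7a1 (1.33), Cox6b2 (1.57) and Atp5g1 (1.86). Of these, Atp5g1 is 1 of 3 genes for the c ring subunit, and the others are the less abundant isoform gene of a complex IV subunit or of Ndufa4. Between these ends, the 4 complex II genes ran from 26.9 (Sdhc) to 94.7 (Sdhd), the 8 of complex III from 31.1 (Uqcrc1) to 80.6 (Uqcrh), and complex I from 0.352 to 59.2 (Ndufb3). The median level was 25.6 for complex I, 47.7 for complex II, 42.3 for complex III, 40.3 for complex IV and 35.9 for complex V. With the length of the principal transcript in place of all exons, the median was 59.4, 17 genes were above 100 and 8 of the 10 most abundant genes were the same. Single genes moved further, such as Atp5l (7.08 to 83.9) and Ndufb7 (11.7 to 85.0). The levels, and the order of genes and complexes by level, thus depend on the length used.

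**Figure D1:**
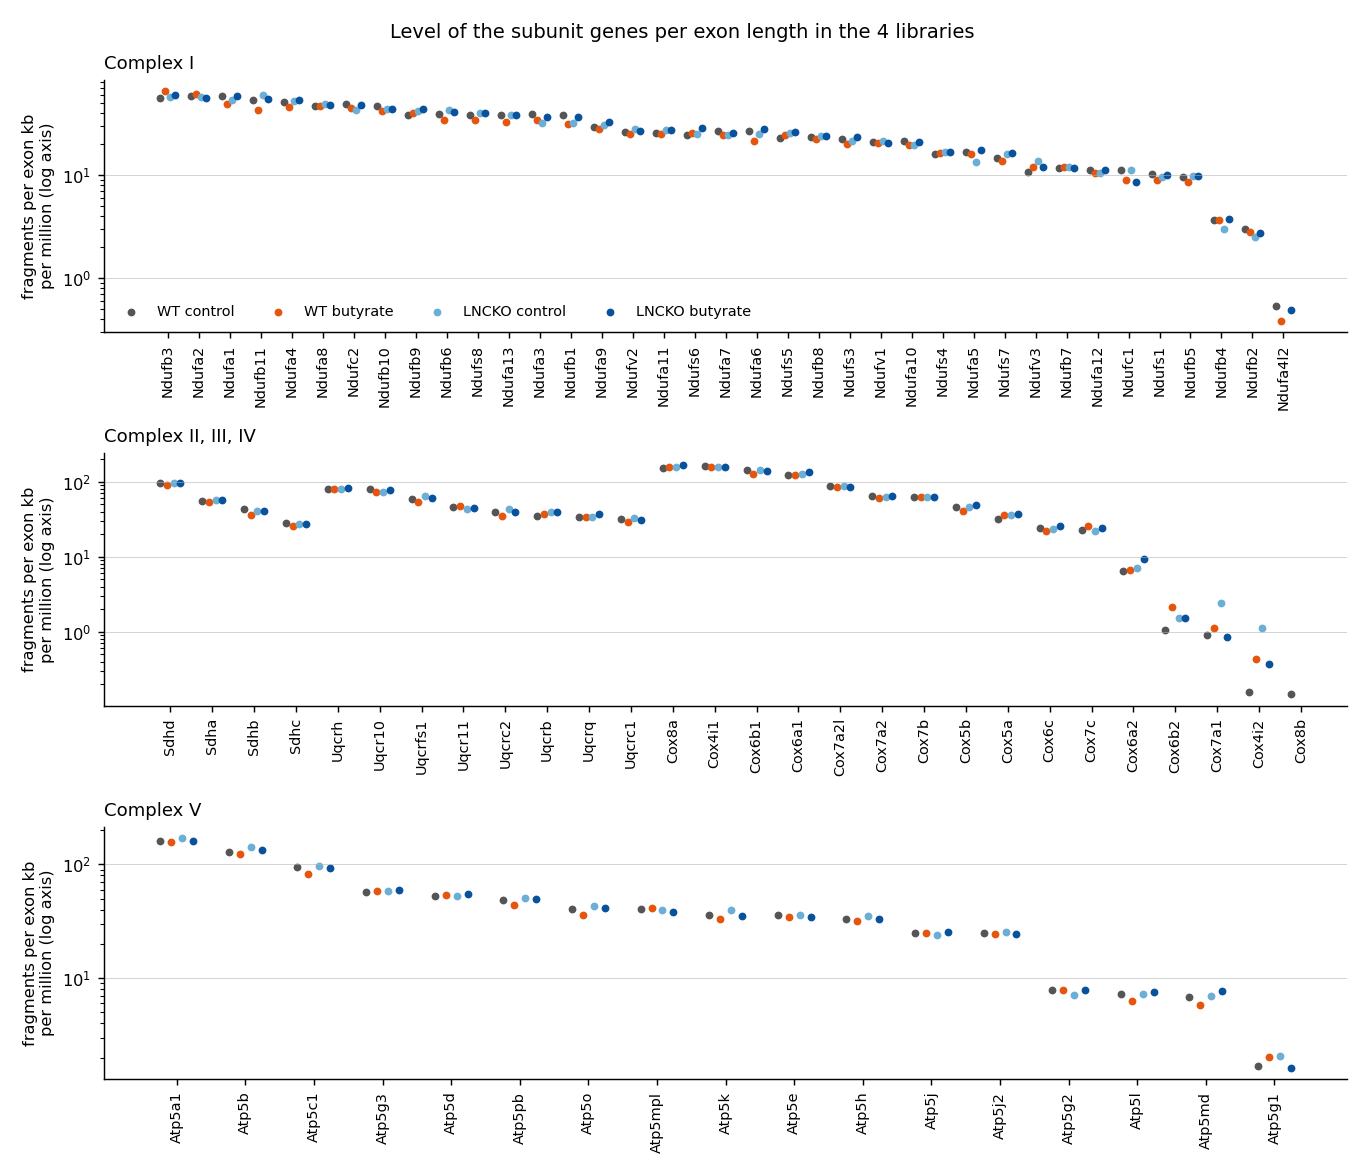
Level of the subunit genes in each library, as fragments per kilobase of exon and per 1000000 fragments on a log axis, ordered by mean within complex; values of 0 (Ndufa4l2 in LNCKO control and Cox8b outside WT control) are not drawn. The 4 libraries lie close together for most genes, and the spread widens for isoform genes under 2.

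Few subunit genes differed much between any of the libraries. The highest library over the lowest was a ratio of 1.14 in the median member, against 1.15 in the median of all genes past the minimum. It stayed under 1.2 in 60 of 76 subunit genes (78.9%), against 66.3% of all genes. Cox7b was the steadiest, with a ratio of 1.01, followed by Atp5j2 (1.03) and Cox4i1 (1.03). The ratio was largest for Cox6b2 (2.04), Cox6a2 (1.41) and Ndufb11 (1.38). The lowest of the 4 libraries was WT butyrate for 46 of the 76 genes (60.5%), against 49.8% of all genes, and the highest was LNCKO butyrate for 30 (39.5%), against 21.6%.

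In WT macrophages, 20 of the 76 subunit genes were higher with butyrate and 56 were lower. Of all genes, 36.9% were higher. The median log2 change of FPKM + 1 was -0.06 for the subunit genes and -0.04 for all genes, a difference of -0.02 between the 2 medians. When the libraries were scaled by the median of gene ratios, 34 of the 76 were higher, against 50.6% of all genes, and the median was -0.01. A difference of at least 1.2-fold was reached upwards by 1 subunit gene (4.35% of all genes) and downwards by 2 (5.36%), and 0 members reached 2-fold in either direction on the FPKM + 1 scale (0.264% of all genes upwards and 0.0734% downwards). The genes past 1.2-fold were Cox6b2, Ndufa6 and Ndufb11, and as a plain ratio Cox6b2 was past 2-fold (log2 1.03).

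The low end was held by accessory subunits of complex I, which surround its redox core. Gene positions are those of GENCODE M21 on GRCm38. Ndufa6 (chr15:82350140-82354322, - strand), of the LYR family of small mitochondrial proteins, was at 11.6, 9.11, 10.7 and 11.97 FPKM in the order WT control, WT butyrate, the LNCKO control and LNCKO butyrate, from 2726, 2255, 2394 and 3280 fragments. The WT butyrate library was the lowest, with a log2 change in WT of -0.31 (the plain log2 ratio was -0.34, 95% counting interval -0.42 to -0.26). Ndufb11 (chrX:20615326-20617619, - strand), a membrane arm subunit, was at 21.3, 16.9, 23.4 and 21.4 FPKM in the same order. It was also lowest in WT butyrate, and its log2 changes were -0.31 in WT and -0.13 in LNCKO. Its exons overlap those of Rbm10 on the opposite strand, and Rbm10 itself differed by only 0.02 in either genotype. Ndufb1, another accessory subunit, was at 4.92, 3.96, 4.09 and 4.65 FPKM, which put the WT control highest, and changed by -0.26 in WT. It overlaps Cpsf2 on the opposite strand, which went from 4.03 to 3.01 FPKM in WT, a log2 change of -0.33. The part of the overlap in the Ndufb1 value was not tested.

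The genes that were higher in WT with butyrate were fewer and spread over complexes. Cox6b2, the testis-type isoform of a subunit that faces the intermembrane space (chr7:4751792-4753094, - strand), was at 0.898, 1.83, 1.29 and 1.31 FPKM, from 66, 141, 90 and 112 fragments. Its log2 change in WT was 0.58, or 1.03 as a plain ratio (counting interval 0.59 to 1.47), and WT butyrate stood above every other library. At this depth it stayed far below Cox6b1, which went the other way (10.99 to 9.56 FPKM in WT, a log2 change of -0.18). Ndufb3, a small membrane arm subunit, was at 4.46, 5.16, 4.54 and 4.70 FPKM (log2 change in WT 0.18). Cox5a, a nuclear subunit of complex IV, was at 5.97, 6.80, 6.84 and 7.02 FPKM (0.16), with the WT control below every other library.

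By complex, the WT butyrate median was -0.08 for complex I (8 of 34 higher), -0.08 for complex II (0 of 4), -0.06 for complex III (3 of 8), -0.01 for complex IV (5 of 13) and -0.05 for complex V (4 of 17). Of all genes, 36.9% were higher, with a median of -0.04. The shares higher in complexes III (37.5%) and IV (38.5%) were close to that of all genes. Under scaling by the median of ratios, 50.6% of all genes were higher. The complex medians were then -0.04 (12 of 34 higher), -0.03 (0 of 4), -0.006 (4 of 8), 0.05 (9 of 13) and 0.002 (9 of 17), so those of complexes IV and V changed sign. In complex I, none of the 7 core subunits, which include the carriers of the flavin and the iron-sulfur clusters, was higher, with a median of -0.09 and values from -0.14 to -0.02, although 2 of the 7 were higher under scaling by the median of ratios (median -0.05). The 27 accessory subunits past the minimum had a median of -0.07 (8 higher). In complex II, Sdhb, the iron-sulfur subunit of succinate dehydrogenase, was at 5.37, 4.44, 5.06 and 4.99 FPKM and changed by -0.23, while Sdha, its flavoprotein, was at 8.16, 7.77, 8.38 and 8.44 FPKM and changed by -0.06. All 4 complex II genes were lower in WT butyrate, and Sdhb changed most.

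**Figure D2:**
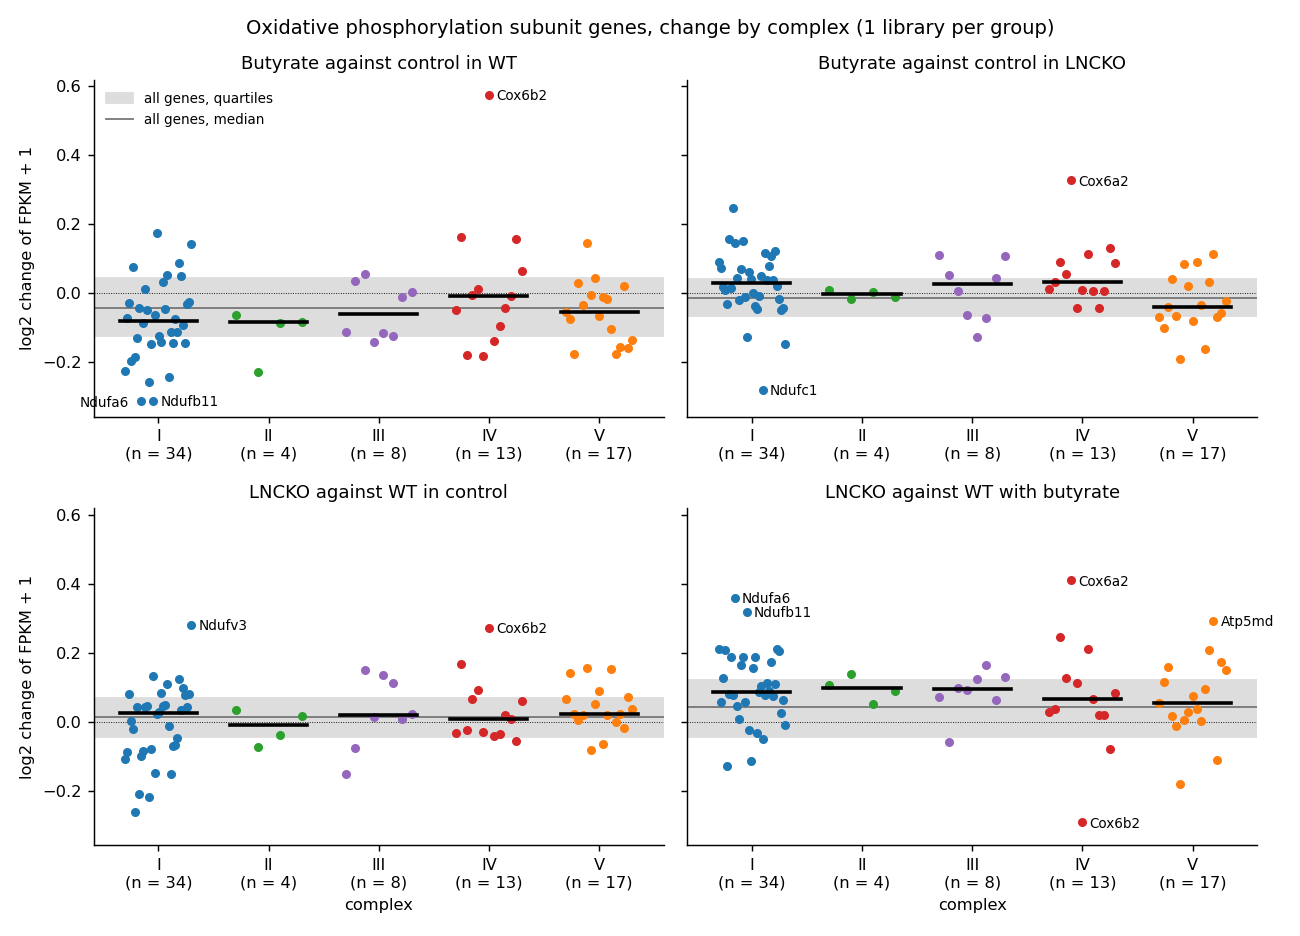
Log2 change of FPKM + 1 of each of the 76 subunit genes in the 4 comparisons, by complex, with the median of each complex as a black bar and the median and quartiles of all 6809 genes in grey; genes past 1.2-fold are named. Complex I sits below 0 in WT with butyrate (median -0.08) and above 0 in LNCKO with butyrate (0.03), and all 5 complex medians are above 0 for LNCKO against WT with butyrate.

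In LNCKO macrophages, 46 of the 76 subunit genes were higher with butyrate and 30 were lower, where 42.2% of all genes were higher. The median log2 change was 0.01, against -0.01 for all genes, and turned to -0.006 when FPKM was rescaled to 1000000 per library. At least 1.2-fold was reached by 1 gene upwards (1.57% of all genes), Cox6a2, and by 1 downwards (0.867%), Ndufc1, and 2-fold by 0 members (0.103% of all genes upwards and 0.0734% downwards). The complex medians were 0.03 for complex I, -0.003 for complex II, 0.03 for complex III, 0.03 for complex IV (11 of 13 higher) and -0.04 for complex V (6 of 17 higher), and that of complex II was 0.01 under scaling by the median of ratios. The complex V median was thus below 0 in both genotypes, though its WT median was 0.002 under that scaling.

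Cox6a2 (chr7:128205435-128206387, - strand), the isoform of heart and skeletal muscle, was at 4.67, 4.72, 5.05 and 6.60 FPKM, from 251, 266, 257 and 412 fragments. Its level was close in the other libraries and higher in LNCKO butyrate, so the log2 change was 0.33 in LNCKO (plain ratio 0.38, counting interval 0.16 to 0.62) and 0.01 in WT. It overlaps Itgad on the opposite strand, which had 59, 63, 80 and 106 fragments. Ndufa5, an accessory subunit of the hydrophilic arm, was at 1.85, 1.77, 1.46 and 1.92 FPKM and had a log2 change of 0.25 in LNCKO, with LNCKO control as the lowest library. Ndufa3, a membrane-bound accessory subunit, was at 13.5, 11.8, 11.1 and 12.5 FPKM (0.16 in LNCKO and -0.18 in WT). Its antisense neighbour Tfpt changed by -0.03 and -0.08.

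On the low side, Ndufc1, an accessory subunit with the YY1 letters in its promoter shown above, was at 3.87, 3.11, 3.83 and 2.98 FPKM, from 940, 795, 881 and 841 fragments. It was lower with butyrate in both genotypes, by -0.28 in LNCKO and -0.24 in WT, as 24 of the 76 subunit genes and 2642 of the 6809 genes were. Atp5g1 was at 1.23, 1.47, 1.48 and 1.18 FPKM and went in opposite directions, -0.19 in LNCKO and 0.15 in WT. Atp5k, a membrane subunit of ATP synthase, was at 18.2, 16.9, 20.3 and 18.1 FPKM and was lower in both (-0.16 and -0.10).

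The butyrate change in WT minus that in LNCKO had a median of -0.08 over the subunit genes, against -0.03 over all genes, and was above 0 in 24 of 76 (41.4% of all genes). With 1 library a group this difference could not be tested. There were 32 subunit genes that were lower with butyrate in WT and higher in LNCKO, where 24.3% of all genes were (28 under scaling by the median of ratios, against 23.1%), and 6 that did the opposite, where 19% of all genes did, Ndufa2, Ndufa8, Ndufb7, Ndufv3, Atp5g1 and Atp5mpl. The median difference was -0.12 in complex I, -0.08 in complex II, -0.05 in complex III, -0.06 in complex IV and 0.01 in complex V. It was most negative for Ndufa6 (-0.46), Ndufb1 (-0.41) and Ndufa3 (-0.34), and most positive for Cox6b2 (0.56), Atp5g1 (0.34) and Ndufv3 (0.29).

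**Figure D3:**
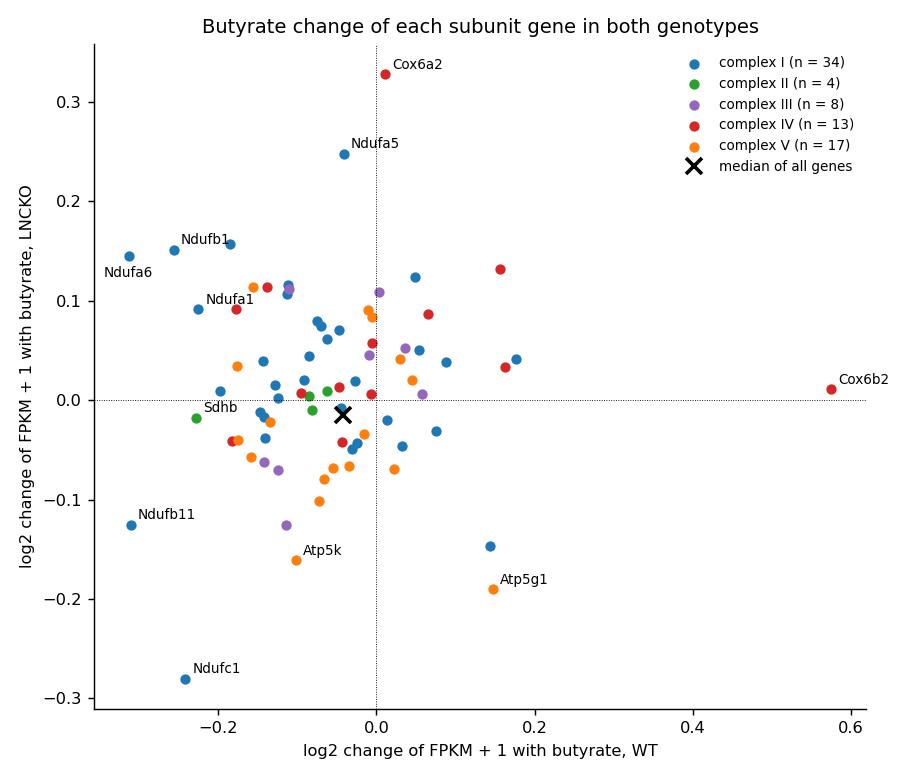
Log2 change of FPKM + 1 with butyrate in WT (horizontal) and in LNCKO (vertical) for each of the 76 subunit genes, coloured by complex, with the median of all genes as a cross. The upper left part, lower in WT and higher in LNCKO, holds 32 genes, among them Ndufa6 (-0.31 and 0.15) and Ndufb1 (-0.26 and 0.15), and Ndufc1 is low on both axes.

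Without butyrate, 47 of the 76 subunit genes were higher in LNCKO than in WT (56.7% of all genes), with a median log2 difference of 0.02, against 0.01 for all genes. At least 1.2-fold was reached by 2 genes upwards (2.14%), Ndufv3 and Cox6b2, and by 0 downwards (1.64%), and 0 members reached 2-fold (0.191% of all genes upwards and 0.0881% downwards). The complex medians lay between -0.01 and 0.03, that of complex IV being 0.01, or -0.01 under scaling by the median of ratios. Ndufv3, a small subunit at the NADH end of complex I, was at 3.01, 3.42, 3.87 and 3.40 FPKM, so LNCKO control was the highest and WT control the lowest library, and the difference was 0.28. Ndufa3 (-0.26), Ndufb1 (-0.22) and Ndufa5 (-0.21) were the lowest in LNCKO control. These genes were also higher with butyrate in LNCKO, a comparison that shares the LNCKO control library.

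With butyrate, 64 of the 76 subunit genes were higher in LNCKO than in WT, where 64.2% of all genes were, with a median difference of 0.08 against 0.04. Under scaling by the median of ratios, 52 of 76 were higher, against 50.4% of all genes, and the median was 0.03. At least 1.2-fold was reached by 4 genes upwards (6.18%), Cox6a2 (0.41), Ndufa6 (0.36), Ndufb11 (0.32) and Atp5md (0.29), and by 1 downwards (4.17%), Cox6b2 (-0.29). Again 0 members reached 2-fold (0.22% of all genes upwards and 0.25% downwards). Atp5md, a small subunit at the interface of ATP synthase dimers, was at 2.60, 2.23, 2.66 and 2.96 FPKM. Atp5g1 (-0.18) and Ndufa2 (-0.13) were the next lowest. All 4 genes of complex II, 7 of 8 of complex III, 28 of 34 of complex I, 11 of 13 of complex IV and 14 of 17 of complex V were higher in LNCKO, with medians of 0.10, 0.10, 0.09, 0.07 and 0.05. Under scaling by the median of ratios the counts were 4 of 4, 7 of 8, 26 of 34, 7 of 13 and 8 of 17, with medians of 0.05, 0.05, 0.04, 0.01 and -0.001.

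A set of 13 redox, catalytic and central structural subunits of all complexes was followed on its own. It includes Ndufs1, Ndufs7, Ndufs8, Ndufv1, Sdha, Sdhb, Uqcrfs1, Uqcrc1, Cox4i1, Cox5a, Atp5a1 and Atp5b. In WT, 12 of the 13 were lower with butyrate (median -0.08), Cox5a being the exception, where 36.9% of all genes were higher, and in LNCKO 7 of 13 were lower (median -0.02). Under scaling by the median of ratios, 9 of 13 were lower in WT (median -0.02) and 6 of 13 in LNCKO (0.001). With butyrate, all 13 were higher in LNCKO than in WT (median 0.11), as were 64.2% of all genes, or 9 of 13 under that scaling (0.06, against 50.4% of all genes), and none of the 13 reached 1.2-fold in any comparison. Ndufs1, which carries iron-sulfur clusters of complex I, was at 10.3, 8.91, 9.59 and 9.97 fragments per kilobase of exon and per 1000000 fragments. Ndufs8, another iron-sulfur subunit, was at 12.5, 11.2, 13.2 and 13.1 FPKM, so both were lowest in WT butyrate. Uqcrfs1, the Rieske iron-sulfur protein of complex III, was at 15.8, 14.4, 17.2 and 16.3 FPKM, and Uqcrc1, a core protein of complex III, at 10.2, 9.17, 10.3 and 9.85. Both were lower with butyrate in WT (-0.12 and -0.14) and in LNCKO (-0.07 and -0.06).

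Among the 6 most abundant genes by exon length, all of complexes IV and V, the highest library over the lowest ran from 1.03 (Cox4i1) to 1.16 (Atp5b). Cox4i1 was at 41.4, 40.0, 40.5 and 40.9 FPKM, from 12934 to 16026 fragments, which is the deepest and among the narrowest sets of values of complex IV. Atp5a1 was at 55.5, 53.4, 58.2 and 55.5 FPKM and Atp5b at 77.1, 73.2, 85.2 and 79.4. Both were lower with butyrate in WT (-0.05 and -0.07) and in LNCKO (-0.07 and -0.10), though Atp5a1 in WT turned to 0.002 under scaling by the median of ratios, and both were highest in LNCKO control.

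Several subunits have a common and a tissue-restricted gene, and the common one dominated in all 4 libraries. Per kilobase of exon, Cox4i1 was at 155 to 160 and Cox4i2, the lung isoform, at 0.158, 0.429, 1.12 and 0.368 in the same order of libraries as above. The Cox4i2 values rest on 7, 20, 47 and 19 fragments. As a plain log2 ratio LNCKO control stood 2.83 above WT control (counting interval 1.67 to 4.22), and butyrate in LNCKO went with a ratio of -1.60 (-2.45 to -0.81). Cox7a1, the heart and muscle isoform, had 27, 36, 69 and 30 fragments. LNCKO control was thus the highest library for both, and Cox7a1 was 1.43 higher there than in WT control (0.77 to 2.13).

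The other members of the Cox7a set were steady. Cox7a2 was at 13.6, 12.6, 13.2 and 13.3 FPKM, and Cox7a2l, whose protein is known to join complexes III and IV, at 8.31, 8.03, 8.44 and 8.16. Cox8a was at 38.0, 39.8, 39.7 and 42.3 FPKM, highest in LNCKO butyrate, while Cox8b, the muscle isoform, had 3 fragments in WT control and 0 in the other libraries, which 3 fragments do not set apart. Cox6a1 was at 25.6, 25.5, 26.8 and 28.0 FPKM. It was highest in LNCKO butyrate, as was its partner Cox6a2.

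Ndufa4, which its symbol places with complex I although its protein is known as a subunit of complex IV, was at 9.73, 8.82, 10.1 and 10.2 FPKM. Its paralogue Ndufa4l2, a gene that hypoxia is known to raise, had 33, 25, 0 and 35 fragments. It is listed at 0 in LNCKO control. A count of 0 allows up to 3 fragments, or 0.0562 fragments per 1000000, so Ndufa4l2 was at least 10.4-fold lower there than in WT control and at least 9.50-fold lower than in LNCKO butyrate, with the 33 and 35 fragments taken as counted. Its exons overlap Shmt2 on the opposite strand. Of the 6809 genes past the minimum, a set without Ndufa4l2, 2 were at 0 in any library. Among all 16375 genes listed, 14431 were above 0 in LNCKO control, against 14557 in WT control, 14750 in WT butyrate and 14741 in LNCKO butyrate.

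The c ring of ATP synthase is made from 3 genes that encode the same mature protein. Per kilobase of exon, Atp5g3 was at 56.6, 58.5, 58.8 and 59.6, Atp5g2 at 7.87, 7.82, 7.12 and 7.88, and Atp5g1 at 1.70, 2.04, 2.06 and 1.63. Atp5g3 was thus the main source in every library, and Atp5g1, the least abundant, was higher with butyrate in WT and lower in LNCKO. Atpif1, the inhibitor of ATP synthase and not itself covered by the symbols, was at 21.8, 21.8, 21.7 and 21.1 FPKM.

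**Figure D4:**
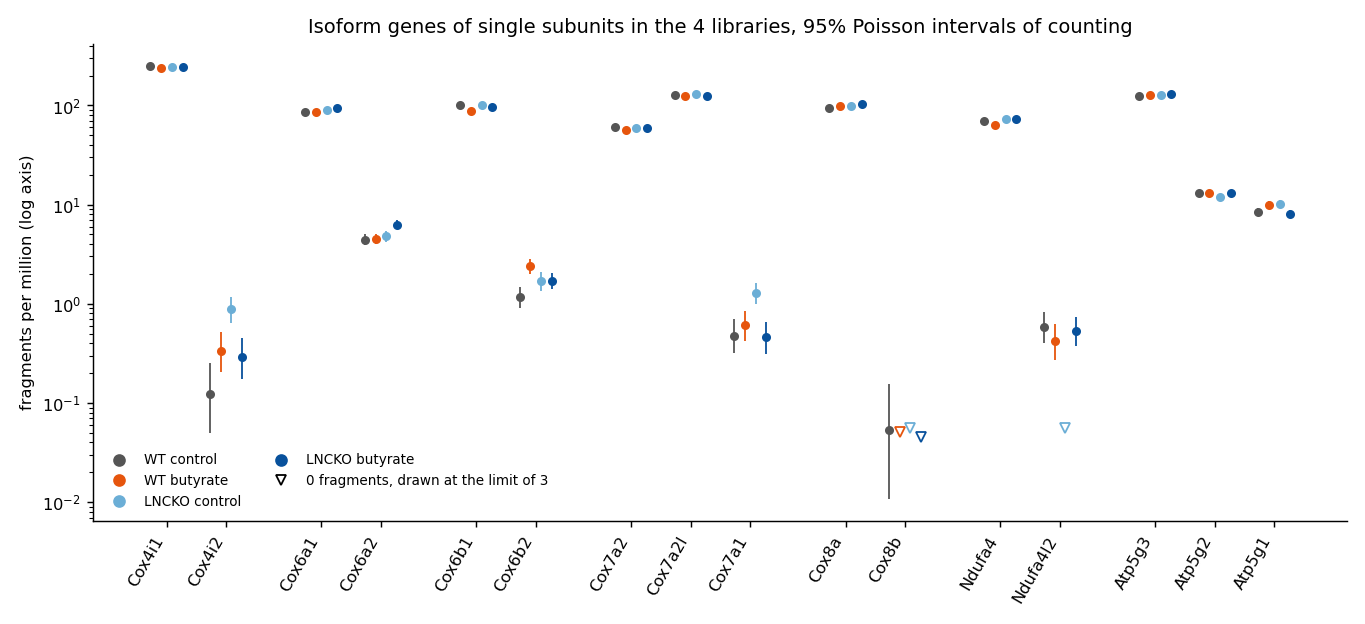
Fragments per 1000000 of the isoform genes in the 4 libraries on a log axis, with 95% Poisson intervals of counting (some are smaller than the points) and open triangles at the limit of 3 fragments where a library had 0. Values of one gene can be compared between libraries, and LNCKO control stands out for Cox4i2 (47 fragments), Cox7a1 (69) and Ndufa4l2 (0).

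As a share of all fragments, the subunit genes took 0.595% of the WT control (exact Clopper-Pearson 95% interval 0.593 to 0.597), 0.564% of WT butyrate (0.562 to 0.566), 0.608% of LNCKO control (0.606 to 0.610) and 0.606% of LNCKO butyrate (0.604 to 0.607). The intervals cover counting error only, as reads without molecular identifiers are not independent molecules. WT butyrate was the lowest for each of complexes I to V, for example 0.151% against 0.162% in WT control for complex I and 0.207% against 0.217% for complex V. It was also the lowest library for 49.8% of all genes. Under scaling by the median of ratios, the median butyrate change in WT was 0.05 for complex IV and 0.002 for complex V, so the lower shares of these 2 depend on the scaling. The cytosolic ribosomal protein genes had the same order of libraries, at 1.69%, 1.62%, 1.73% and 1.72%.

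Other genes of the pathway did not all go with the subunits. Of 46 assembly factors listed, 29 passed the minimum, and their median was 0.03 in WT with butyrate (17 of 29 higher) and -0.01 in LNCKO (12 of 29), or 17 of 29 higher and 0.005 there under scaling by the median of ratios. The 67 mitochondrial ribosomal protein genes were at 0.02 (39 higher) in WT and -0.02 (29 higher, or 43.3%, close to all genes) in LNCKO. Under scaling by the median of ratios, 51 and 32 of the 67 were higher. The TCA cycle genes, which feed the chain with NADH and succinate, had medians of -0.09 and -0.05, with 1 of 10 higher in each genotype, or 4 and 2 of 10 under scaling by the median of ratios. Of them, Fh1, fumarate hydratase, was at 2.72, 2.07, 2.74 and 2.60 FPKM, so it was lowest in WT butyrate as most subunit genes were.

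Cytochrome c (Cycs), the carrier between complexes III and IV, was at 13.98, 17.9, 15.4 and 16.3 FPKM, with log2 changes of 0.33 (WT) and 0.08 (LNCKO), and Ndufab1, the mitochondrial acyl carrier protein, changed by 0.17 and 0.10. Cyc1, the cytochrome of complex III, was at 19.8, 19.8, 23.6 and 22.3 FPKM. None of these 3 genes was lower in WT with butyrate. Among 12 regulators, 6 passed the minimum, with a median of 0.003 in WT and -0.03 in LNCKO. Tfam, the packaging factor of mitochondrial DNA, was at 3.24, 3.24, 3.37 and 3.33 FPKM, Yy1 at 5.67, 5.81, 5.82 and 5.70, and Gabpa at 3.29, 2.91, 3.12 and 3.05. Nrf1 stayed under the minimum, at 0.394 to 0.419 FPKM, which divides by the whole gene span. It had 2230 to 2858 fragments, where Tfam had 2305 to 2795. Ppargc1a, a known coactivator of the pathway, was also under the minimum, with only 41 to 57 fragments.

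**Figure D5:**
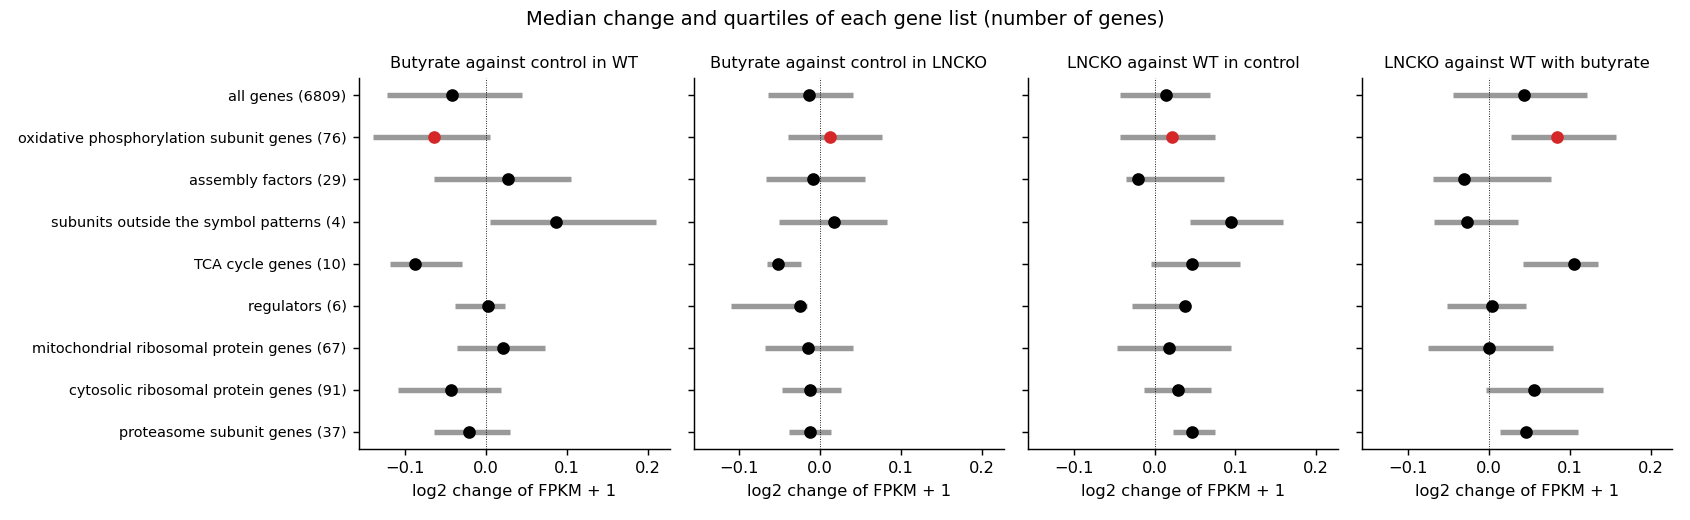
Median (point) and quartiles (bar) of the log2 change of FPKM + 1 for each gene list in the 4 comparisons, with the number of genes in brackets and the subunit genes in red. In WT with butyrate the subunit genes (-0.06) and TCA cycle genes (-0.09) lie below the median of all genes (-0.04), and assembly factors (0.03) and mitochondrial ribosomal protein genes (0.02) above it.

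Other measures moved with the comparison in WT. All 8 B cell markers (median -0.40) and all 6 cell cycle genes (-0.15) were lower with butyrate in WT, where 36.9% of all genes were higher. In LNCKO, 4 of 8 and 1 of 6 were higher (0.0002 and -0.06), against 42.2% of all genes. Gene length moved with the comparison in WT too, with a median of -0.02 over the 2267 genes with the shortest span and -0.06 over the 2267 with the longest. The 55 subunit genes among the shortest were at -0.05 and the 6 among the longest at -0.09, each below all genes of like span. Between LNCKO and WT with butyrate, a comparison that shares the WT butyrate library, all 8 B cell markers (median 0.44), all 6 cell cycle genes (0.13) and all 4 mast cell and basophil markers (0.51) were higher in LNCKO, as were 4 of 5 erythroid markers (2.49), while 2 of 10 macrophage markers (-0.11) and 3 of 8 neutrophil markers (-0.39) were. Of all genes, 64.2% were higher in LNCKO in that comparison. The part of cell composition or span in the subunit gene values was not tested. Exons of 31 of the 83 members overlap another gene, 28 of them on the opposite strand, and no strand setting of the counting was given, so reads of such pairs cannot be told apart.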

How the data were processed

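RNA-seq of 4 samples, 1 library each, was read from 1 table of FPKM values that the authors deposited. The methods name TRIzol extraction, MGISEQ-2000 sequencing and the provider's web platform, while the labels name an RNeasy kit and TruSeq libraries. The submitters' processing notes list STAR 2.5.0c, HTSeq 0.6.0, Picard 1.126, bedtools 2.17.0, DESeq2 3.0, GRCm38 and mm10, with no roles. With gene spans of GENCODE M21 on GRCm38, 98.5% of matched genes gave whole fragments (tolerance 0.02), against 6.99% with exon lengths, so the fragments of all 83 members were recovered. Groups followed the sample titles (the names of the LNCKO libraries do not spell out the treatment).

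A change was the log2 ratio of FPKM + 1, which understates changes of low genes, over 6809 genes with a mean of at least 1 FPKM, and no count test was run with 1 library a group. Intervals are exact (binomial or Poisson, 95%) and cover counting only. Alternatives were pseudocounts of 0.1 and none, scaling by the median of ratios, rescaling to 1000000, a minimum of 5 FPKM and no minimum. Code was tested on simulated data (Python 3.11.15, numpy 2.4.6, pandas 2.3.3, scipy 1.17.1).

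Named members were the 3 largest differences in each direction and comparison, the catalytic subunits and the isoform sets, plus any subunit gene where a count was small. The members and lists were chosen with earlier results of these data known. The values of 1 subunit gene are not reported here on their own.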

Additional observations from a re-analysis of the deposited data

Results flagged for a closer look

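The median butyrate change pointed in opposite directions in WT and LNCKO for the subunit genes as a list, with the WT median minus the LNCKO median at -0.076 on the log2 scale (-0.06 in WT and 0.01 in LNCKO). The same held for complex I at -0.11 (-0.08 and 0.03), complex III at -0.086 (-0.06 and 0.03) and complex IV at -0.040 (-0.01 and 0.03). With 1 library a group, none of these differences was tested. Over all genes, the median butyrate change was -0.04 in WT and -0.01 in LNCKO. Under scaling by the median of ratios, the complex III median in WT was -0.006, with 4 of 8 genes higher. The opposite sign in complex IV was lost under scaling by the median of ratios, where its WT median was 0.047, and that of the whole list after rescaling to 1000000 per library, where the LNCKO median was -0.0056.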

How the results depend on the processing

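No paired analysis was possible because each group holds 1 library. Of 24 list medians compared with an alternative, 23 kept their direction and moved by under 0.1. The exception was LNCKO with butyrate, at -0.0056 after rescaling to 1000000 per library. All list medians were themselves under 0.1 in size, so this limit could not show a shift towards 0. Under scaling by the median of ratios, the median of WT with butyrate went from -0.064 to -0.014. That of LNCKO against WT with butyrate went from 0.085 to 0.034. Of 40 complex medians, 35 kept their direction. Leaving out the pseudocount, 1 of the alternatives counted there, cannot change the sign of any single gene, so it could hardly show a reversal. The other 5 changed sign under scaling by the median of ratios: complexes IV (0.047) and V (0.0022) in WT with butyrate, II in LNCKO with butyrate (0.014), IV in LNCKO against WT control (-0.0098) and V in LNCKO against WT with butyrate (-0.0013). Of 298 values of named genes, 271 stayed within the spread of counting and 27 moved. Counts past 1.2-fold, which rest on few genes, moved in 27 of 48 cases, and their cause was not tested. In WT with butyrate, the 2 lower genes became 5 with a pseudocount of 0.1 or none, 0 with median scaling and 9 after rescaling, and the 1 higher became 0 at a minimum of 5 FPKM. In LNCKO with butyrate, the 1 higher became 2 with a pseudocount of 0.1 or none or with no minimum and 4 after rescaling, and the 1 lower became 2, 2, 2 and 3, and 0 at the minimum of 5. For LNCKO against WT without butyrate, the 2 higher became 1 with median scaling, 4 after rescaling and 0 at the minimum of 5, and the 0 lower became 2 with a pseudocount of 0.1, 3 with none, 1 with median scaling, 3 after rescaling and 1 with no minimum. With butyrate, the 4 higher became 15 after rescaling, and the 1 lower became 2 with a pseudocount of 0.1, with none or after rescaling and 0 at the minimum of 5. As a share of summed FPKM, which weights short genes more, the subunit genes took 0.951%, 0.876%, 0.979% and 0.966% of the WT control, WT butyrate, the LNCKO control and LNCKO butyrate. Exon length against principal transcript length, an alternative chosen after seeing the data, moved the median level from 35.2 to 59.4 and the genes above 100 from 6 to 17. Members with under 100 fragments, such as Cox4i2, Cox7a1, Cox8b and Ndufa4l2, are limited by depth.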
